A study of Mus musculus with 22 samples.

Results

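The regions described here are places in the mouse genome where chromatin immunoprecipitation (ChIP) of HA-tagged artificial transcription factors gave a peak in early reprogramming cells and where pluripotent cells had a peak of the heterochromatin mark H3K9me3. A site was a merged HA peak on chromosomes 1 to 19 that held a peak of both C2 libraries and overlapped no peak of either Empty library by 1 bp or more. It became a member when it also overlapped an H3K9me3 peak in any of 6 libraries. The rule left 1113 members among 2568 C2 HA sites, which is 43.3% of them, and among 60029 merged HA peaks of all 4 HA libraries. The other 1455 C2 HA sites overlapped no H3K9me3 peak. The mark and the HA tag were not measured in the same cells: HA was read in early cells, at day 20 for C2, not yet fully reprogrammed, and the histone marks in induced pluripotent stem (iPS) cells.

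All cells derived from embryonic fibroblasts of the C57BL/6 strain, were fixed in 1.5% formaldehyde and, in every group, had received Sox2, Klf4 and c-Myc. C2 cells additionally received the zinc-finger factors ZFATF1, ZFATF2 and ZFATF3, C3 cells received ZFATF1, ZFATF2 and ZFATF4, and OSKM cells received Oct4 in their place. Empty cells received an empty vector and are the labelled negative control of the HA antibody in early cells. HA libraries came from C2 and Empty cells, H3K9me3 and H3K27ac libraries from C2, C3 and OSKM iPS cells, each with 2 libraries. The iPS cells were given 100 nM 4-hydroxytamoxifen and carried an Oct4-MerCreMer system with a fluorescent Tomato and GFP reporter. The labels put the HA tag on the artificial factors without naming 1 of them, so a site cannot be given to 1 of the 3 factors of C2. Nothing in the labels says whether libraries of a group came from separate cultures or clones, so p-values measure the spread between libraries.

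Zinc-finger artificial factors join an array of DNA-reading fingers to an effector domain and were used here in place of Oct4. H3K9me3 is laid down by methyltransferases such as Setdb1 and the Suv39h enzymes and is read by HP1 proteins; it covers silenced repeats, clusters of zinc-finger and receptor genes and gene-poor stretches. In reprogramming, broad H3K9me3 blocks of fibroblasts are known to hinder binding of the pluripotency factors. H3K27ac marks active promoters and enhancers and is usually absent from such chromatin.

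The HA libraries kept 2506011 and 3896935 tags in C2 and 1707437 and 1629753 in Empty after duplicate removal, of 25985373 to 46426379 tags, so that 0.92 to 0.94 of all tags were redundant. The histone libraries kept 28947967 to 46304808 tags. Of the C2 peaks, 42.9% of those of replicate 1 were overlapped by replicate 2 and 12.2% of those of replicate 2 by replicate 1. Overlap between the groups was of the same order: Empty replicates 1 and 2 overlapped 11.8% and 25.1% of the peaks of C2 replicate 1 and 8.99% and 20.7% of those of C2 replicate 2. Of the peaks of Empty replicates 1 and 2, C2 replicate 2 overlapped 37.9% and 39.9%, while the other Empty library overlapped 22.7% and 10.6%. In each library the overlap ran in the order of the peak numbers of the other 3 and did not separate C2 from Empty. Each of 8 pluripotency genes used as markers, among them Pou5f1, Nanog and Sox2, lay at an H3K27ac peak in all 6 iPS libraries. Of 9 fibroblast genes, 0 to 5 did so. Of 7 primitive endoderm genes, the remaining marker list, 5 to 7 did so. Peak presence thus set the pluripotency genes apart from the fibroblast genes but hardly from the primitive endoderm genes. C2 and OSKM shared their histone input samples while C3 had its own, so an input difference cannot be told apart from a difference between C3 and the other lines.

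Among the promoter windows used, a single member reached one of RefSeq (250 bases before to 50 bases after a gene start). It is shown as the only place where a C2 HA peak in H3K9me3 reached a promoter sequence of the RefSeq table. The member, chr12:77552526-77553477 in mm10, entered the first 17 bases of the window of the predicted gene Gm35240, printed on the plus strand from chr12:77553461-77553760 of RefSeq GRCm38.p6 with the shared bases in capitals.
Gm35240: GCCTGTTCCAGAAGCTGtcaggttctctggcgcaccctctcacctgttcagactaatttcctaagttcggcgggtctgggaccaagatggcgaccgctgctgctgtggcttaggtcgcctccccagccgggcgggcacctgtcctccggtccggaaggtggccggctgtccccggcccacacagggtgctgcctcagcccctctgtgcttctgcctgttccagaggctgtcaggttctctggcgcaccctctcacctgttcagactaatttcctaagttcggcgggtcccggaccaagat
The start of the window, with the bases shared with the member, recurs almost unchanged at its end. Whether reads could be placed uniquely there was not tested. This window held none of 5 motifs searched on both strands: the octamer core ATGCAAA, the Sox core ATTGTT, the Klf motif GGGTGTG, the E-box CACGTG and a run of 6 GNN triplets. Over 32851 promoter windows of the same length they stood in 4.63%, 10.7%, 7.95%, 7.15% and 39.4%. The member carried H3K9me3 peaks in 4 of 6 libraries and H3K27ac peaks in all 6, with H3K27ac fold enrichments of 9.32 and 4.22 in C2, 13.6 and 9.11 in C3 and 8.84 and 6.82 in OSKM.

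HA signal at the members was low in tags and even from site to site. The median number of tags at the summit was 8 in both C2 libraries, with ranges of 5 to 91 and 6 to 153, and 905 members (81.3%) had 10 tags or fewer in both. Fold enrichment over the local background, the authors' value per peak, had a median of 6.11 in replicate 1 and 5.93 in replicate 2. The other C2 HA sites had medians of 5.74 and 5.93 and also 8 tags in both libraries, values close to those of the members. Summits of the C2 libraries lay a median of 147 bp from each other, and within 200 bp at 714 members. Members had a median width of 545 bp, against 517 bp for the other C2 HA sites.

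The 10 members with the highest mean HA fold enrichment were modest peaks in broad H3K9me3. The first, at chr7:107268911-107269982 and 57995 bp from the testis-type RNA-binding gene Rbmxl2, had 10 and 16 HA tags and folds of 7.90 and 11.2. It lay in an H3K9me3 domain (a stretch of merged H3K9me3 peaks) of 11907 bp, with H3K9me3 folds of 5.83 and 9.37 in C2, 10.8 and 9.28 in C3 and 19.4 and 15.9 in OSKM. The second, at chr12:82637016-82638133 within Rgs6, a regulator of G-protein signalling, had HA folds of 7.48 and 10.9 and a narrower domain of 2110 bp. Others of the 10 within genes included chr4:108287580-108288411 in Zyg11b, a substrate receptor of a ubiquitin ligase, with HA folds of 10.1 and 7.14, and chr10:57140868-57141617 in Gm40652, with 7.18 and 9.89. All of these 10 except the one in Rgs6, with 5, had H3K9me3 peaks in 6 libraries, and none had an H3K27ac peak. In the deposited region tables the H3K9me3 region of the Rgs6 member stood at the lowest value in every library. The lowest mean fold was at chr12:67059197-67059692 in Mdga2, where 55 and 67 tags gave folds of 2.61 and 2.66. The member nearest the median, chr13:20718165-20718694, had 9 and 7 tags and folds of 7.02 and 5.27.

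The share of HA peaks in H3K9me3 overlapped between C2 and Empty libraries over all peaks, while among merged sites it was higher for C2. Over all peaks of a library it was 42.9% and 37.8% in C2, against 33.5% and 40.5% in Empty. Means were 40.3 ± 3.63% in C2 and 37.0 ± 4.98% in Empty (SD, n = 2 each), the groups overlapped, and an exact two-sided permutation test gave p = 0.667. With 2 libraries each the smallest possible p is 0.333, so this test cannot show a difference or its absence. Among merged sites the share was 43.3% for C2 HA sites (1113 of 2568), 56.0% for sites of both C2 libraries that an Empty library also had (1156 of 2064) and 33.7% for sites of both Empty libraries and of neither C2 library (251 of 745). Removing Empty peaks thus took out a set richer in H3K9me3 than the one it left. The C2 share was the higher one in each of 5 width classes, split at 400, 500, 600 and 800 bp. From narrow to wide it was 42.1%, 37.9%, 44.1%, 44.7% and 51.9% of C2 HA sites, against 29.7%, 36.4%, 32.0%, 35.3% and 43.6% of Empty sites. The sets were also filtered unequally: a C2 library overlapped 13.9% to 39.9% of the peaks of an Empty library. An Empty library overlapped 8.99% to 25.1% of the peaks of a C2 library. These site shares have no replicate check, and the part of depth and of unequal filtering in them was not tested. The merged H3K9me3 peaks of the 6 libraries covered 111.9 Mb.

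**Figure D1:**
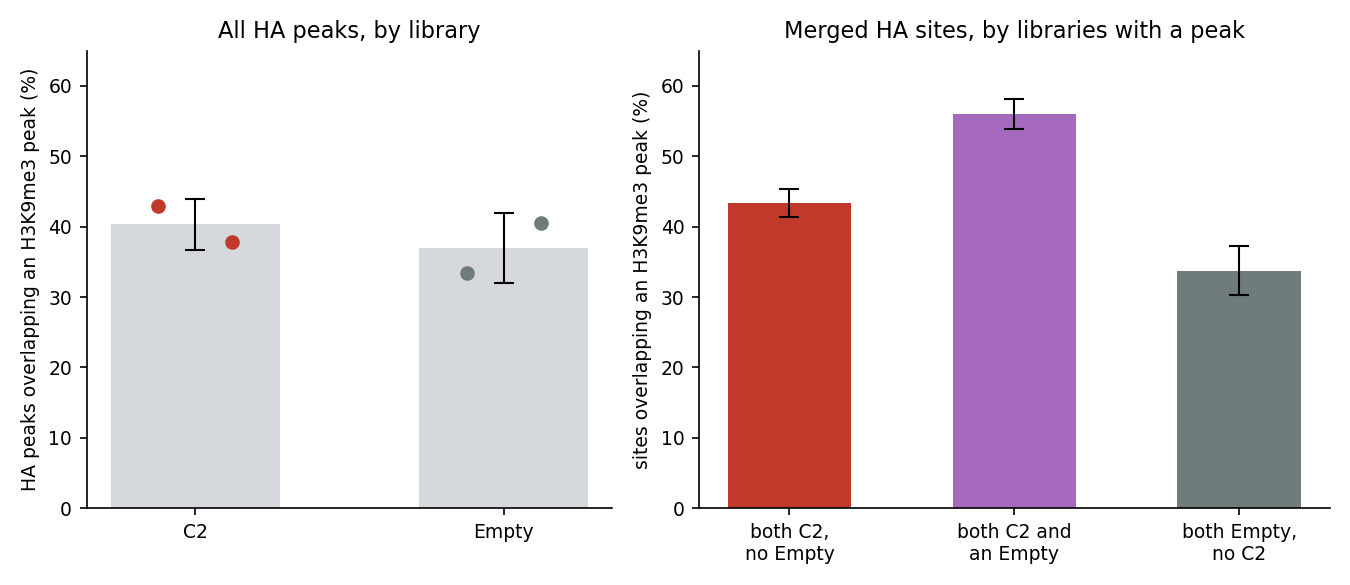
Left, the share of HA peaks (%) that overlap an H3K9me3 peak in each C2 and each Empty library (points), with the group mean (bar) and SD (n = 2). Right, the same share for merged HA sites by the libraries that hold them, with 95% exact binomial intervals, which cover counting error only: 43.3%, 56.0% and 33.7% from left to right.

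Members lay in H3K9me3 peaks that were broad and shared between libraries. H3K9me3 peaks covered 809 of the 1113 members completely, and 900 members had their HA centre within 500 bp of an H3K9me3 summit. The median domain was 3045 bp wide, and 490 members (44.0%) lay in domains of 5 kb or more, which are 3.82% of the merged H3K9me3 peaks and hold 25.9% of their bases. The 1113 members occupied 1032 domains, of which 77 held more than 1 member. The strongest overlapping H3K9me3 peak had a median fold of 6.66 and 6.41 in C2, 9.32 and 7.81 in C3 and 10.4 and 8.96 in OSKM, whereas the median over all peaks of a library lay between 3.9 and 4.58. The first is the highest peak at a member and the second counts every peak, so they are not like for like. In the deposited region tables the order was the reverse. The median H3K9me3 level was taken in RPM (reads scaled by the library total over all regions) per kb. It was 1.40 to 1.77 in regions with a member, against 5.52 to 7.19 in all regions. Regions with a member were wider, with a median of 3772 bp against 972 bp for all regions. The part of width, and of reads missing from the tables, in this level was not tested. The rule asked for H3K9me3, so these values describe the members and are no test. The part of domain width in how often a domain meets an HA site was not tested.

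All 6 H3K9me3 libraries had a peak at 568 members (51%), against 22.6% of all merged H3K9me3 peaks. Only 1 of 6 libraries had one at 144 members (12.9%), against 37.5%. All 3 lines marked 750 members (67.4%), compared with 37.8% of all merged peaks. Recurrence was not particular to C2: of the 251 Empty HA sites in H3K9me3, 93 had a peak in all 6 libraries and 56 in only 1. All 3 lines marked 138 of these 251 sites, and both OSKM libraries 181. By library, the number of members with a peak was 746 and 815 in C2, 805 and 634 in C3 and 945 and 1057 in OSKM. Both libraries of a line agreed at 687 members (61.7%) in C2, 625 (56.2%) in C3 and 916 (82.3%) in OSKM. Over all merged peaks the same shares were 28.5% for C2, 29.7% for C3 and 49.6% for OSKM. Peaks per library numbered 64440 and 59699 for C2, 84462 and 51791 for C3 and 79650 and 81500 for OSKM. C2 alone marked 14 members (1.26%), against 3.15% of all merged H3K9me3 peaks, C3 alone 5 (0.449%), against 15.5%, and OSKM alone 183 (16.4%), against 24.8%. Of the 251 Empty HA sites in H3K9me3, C2 alone marked 2, C3 alone 2 and OSKM alone 74. These shares carry no test, and their relation to peak number was not tested. In bulk samples, fewer cells with a mark and less of the mark per cell cannot be told apart.

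**Figure D2:**
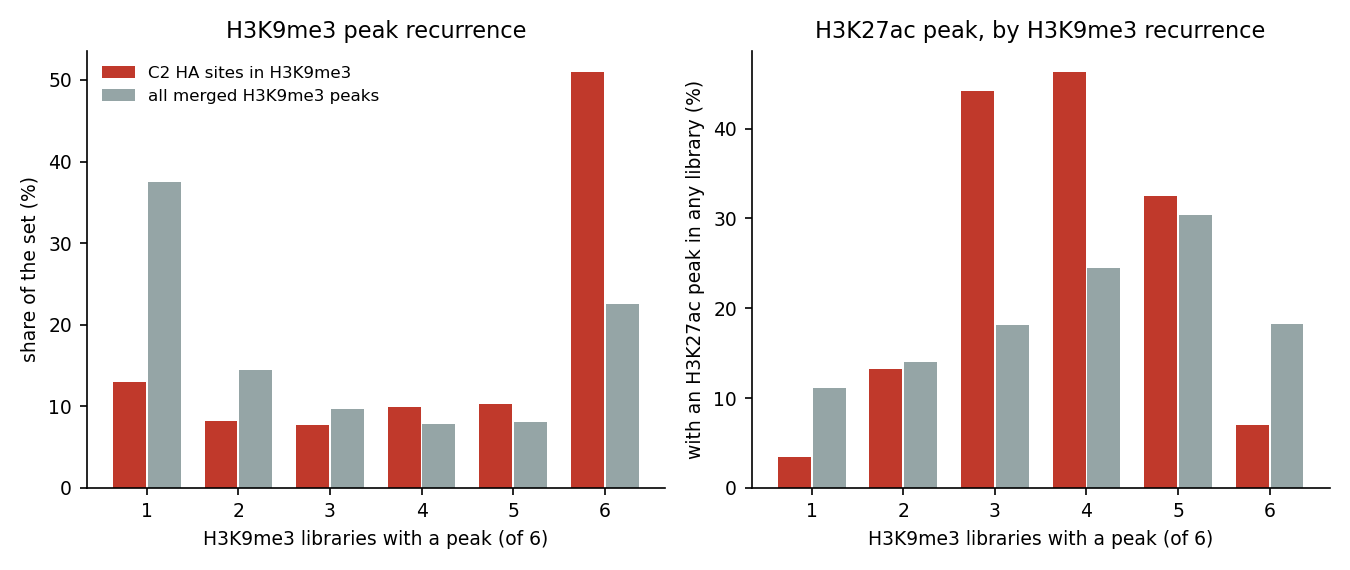
Left, the share (%) of the 1113 C2 HA sites in H3K9me3 and of all 96900 merged H3K9me3 peaks by the number of H3K9me3 libraries with a peak (1 to 6). Right, the share (%) of the same sets with an H3K27ac peak in any of 6 libraries: among the C2 HA sites it is 44.2% and 46.4% at 3 and 4 libraries and 3.47% and 7.04% at 1 and 6.

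Members overlapped genes less often than the other C2 HA sites did. Both sets seldom lay near gene starts, the members somewhat more often. A RefSeq gene extent overlapped 317 members (28.5%), 496 of the other C2 HA sites (34.1%), 32.7% of merged H3K9me3 peaks and 64.2% of merged H3K27ac peaks. Of the 1080 members outside chromosome 18, whose gene starts were not used here, 19 lay within 2500 bp of a gene start (1.76%), against 8 of 1404 other C2 HA sites (0.570%), 2.95% of merged H3K9me3 peaks and 19% of merged H3K27ac peaks. The promoter windows searched above likewise lay outside chromosome 18. Not 1 of the 36 naive and core pluripotency genes, 17 primed genes, 18 endoderm genes, 26 fibroblast genes, 23 genes of the H3K9 methylation machinery, 28 imprinted genes or 43 Hox genes had a member in its extent or within 2500 bp. Over all genes, members overlapped the extent of 287 of 49943 (0.575%). That share leaves out the 2500 bp on either side that the list counts take in. Apart from Hox, these lists are selections, and genes of the same kinds outside them, imprinted ones included, were not counted. Nothing particular to the lists is read from their counts. Members reached 2 of 416 Zfp zinc-finger genes, 5 of 1428 olfactory receptor genes, 5 of 645 vomeronasal receptor genes and 7 of 58 clustered protocadherin genes.

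Of the gene families, Zfp385c, a zinc-finger gene, held the member chr11:100666824-100667681 (11 tags and a fold of 8.62 in C2 replicate 1, 11 tags and 7.91 in replicate 2) in a domain of 9569 bp. Zfp277 held chr12:40406648-40407324, with folds of 4.96 and 8.35 and a domain of 11710 bp. Near the olfactory receptor gene Olfr784, 180 bp away, chr10:129389002-129389809 had folds of 7.03 and 5.93. The vomeronasal pseudogene Vmn2r-ps23 contained chr5:109727678-109728340, with 6.58 and 8.86, and Vmn2r-ps50 lay 690 bp from chr7:9748620-9749872, with 9.33 and 7.25. Cell-adhesion genes of the protocadherin alpha cluster, Pcdha1 to Pcdha7, shared a pair of members on chromosome 18, one at chr18:36986373-36987028 with folds of 6.79 and 7.25. These members all carried H3K9me3 peaks in 6 libraries, and none carried an H3K27ac peak. In the deposited region tables, however, the H3K9me3 region of the Vmn2r-ps50 member stood at the lowest value in every library (0.117 to 0.293 RPM). Outside the rule for naming, and chosen after their counts were seen, the adhesion gene Cdh12 held 4 members in 1150 kb and Ccdc15 3 members in 82.8 kb.

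The deposited region tables, which give reads per region for comparing lines, held 1000 members in 918 H3K9me3 regions and 190 in 187 H3K27ac regions. In H3K27ac regions with a member, fewer table reads than tags at the peak summit were the rule. In H3K9me3 regions with a member this was only more frequent than over all regions. A member stands by the region it overlaps longest. Among H3K9me3 regions with a peak of the same library, 38.9% to 55.1% of those with a member had fewer reads in the table than tags at the peak summit, against 26.7% to 37.9% of all regions. For H3K27ac the shares were 91.2% to 95.5% with a member and 8.93% to 18.4% of all regions. At the members' H3K27ac peaks the median was 36 to 54 tags at the summit but 5 to 10 reads in the table. Which reads the tables left out, by mapping quality or by subtraction of input, is not given in the sources used here. H3K9me3 was at the table's lowest value, 1 read, in all 4 libraries at 204 members for C2 with OSKM, 207 for C3 with OSKM and 227 for C2 with C3. Such members cannot show a difference between lines.

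**Figure D3:**
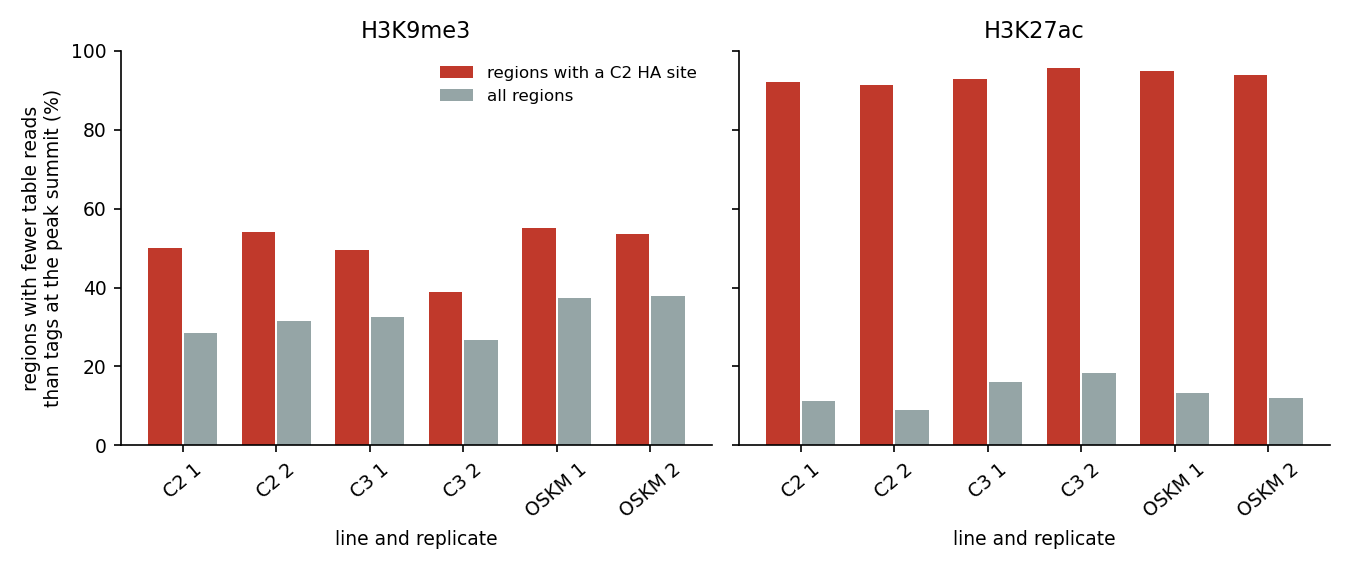
For each H3K9me3 (left) and H3K27ac (right) library, the share (%) of table regions with a peak of that library whose table reads number fewer than the tags at the peak summit, for regions with a C2 HA site in H3K9me3 and for all regions. In H3K27ac the member regions stand between 91.2% and 95.5%, all regions between 8.93% and 18.4%.

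Against OSKM, H3K9me3 in C2 fell at 13 members (10 regions) and rose at 0, in limma over all 68845 regions with Benjamini-Hochberg adjustment. The share of all regions that fell was 0.896% and the share that rose 0.0901%, and 0.986% were called in either direction, so the 1.3% of members called stands close to the background. Of the 1000 members, 647 lay in regions above the lowest 25% by mean, where both fits of the call rule apply. Their median log2 fold change was -0.22, against -0.15 over all such regions. edgeR on the recovered reads called 14 members and DESeq2 34, with 0 higher in both, against 1.05% and 2.41% of all regions. By the authors' deposited FDR, 3 members were higher and 24 lower, against 4.91% of all regions called in either direction. An unadjusted p under 0.05 in limma was found at 151 members and at 10572 of all 68845 regions.

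The lowest adjusted p-values were at the ribosomal RNA-related locus Rn18s-rs5. The region chr17:39842993-39845655, with 2 members, had 1 read in each C2 library, against 7517 and 5900 in OSKM. The adjusted p was 5.8e-07 in limma. No fold is given, since 1 is the lowest value of the tables and whether it is a count, or what input subtraction or a mapping filter left, is not given in the sources used here. Its neighbour chr17:39845883-39847374 had 1 read in each C2 library, against 2853 and 2404 in OSKM (adjusted p = 2.3e-06). The 4 members at this locus had 44 to 72 HA tags but folds of only 2.60 to 3.63, and OSKM H3K9me3 peak folds there were only 1.3 to 1.66 over the local background, so the table difference is no measure of how much of the mark was lost. Another region of the kind, chr16:57391170-57391545 in Cmss1 and Filip1l, had 1 read in each C2 library, against 213 and 159 in OSKM, with OSKM peak folds of 1.68 and 1.41 (adjusted p = 0.0137). At chr6:106768144-106768800, 985 bp from the tRNA-processing gene Trnt1, the counts were 1 and 1 in C2, against 42 and 51 in OSKM (adjusted p = 0.0401).

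A fall of ordinary size came at chr4:59029976-59034048, 3975 bp from the G-protein subunit gene Gng10. Normalized reads there were 64.2 and 73.9 in C2, against 171.3 and 187.3 in OSKM (log2 fold change -1.37 ± 0.20, SE, adjusted p = 0.0279 in limma). The libraries of the lines did not overlap. Of the 10 regions, 4 lay on chromosome 8. All tested regions there had a median log2 fold change of -0.99 in C2 against OSKM, the other chromosomes lying between -0.30 and -0.07. H3K27ac was lower on chromosome 8 as well, with a median of -1.34 over its tested regions and 35.0% of them called lower. Falls on this chromosome are thus not particular to H3K9me3, and their cause was not tested. Without chromosome 8, 7 members fell. The count rested on single libraries. It rose when either C2 library was left out and fell when either OSKM library was, and the count over all regions moved the same way. The fall near Gng10 lost its call without OSKM replicate 1 (adjusted p = 0.0571) or 2 (0.130), and the one near Trnt1 likewise (0.343 and 0.386). Over all regions, 10 were called after quantile normalization and 20 with a pseudocount of 8 in place of 1, against 679 in the main fit. Quantile normalization ended the call at 8 of the 10 regions with a member, and the pseudocount of 8 also at 8. Among them were the Cmss1 and Filip1l region (adjusted p = 0.130 and 0.0731), that near Gng10 (0.201 and 0.0731) and that near Trnt1 (0.0847 and 0.0731).

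In C3 against OSKM, H3K9me3 rose at 17 members (12 regions) and fell at 40 (35 regions) in the same limma test, against 1.26% and 5.48% of all regions and 6.73% in either direction. The 5.7% of members called stands near that background. With median-centred libraries 16 members rose and 23 fell. The rises were shallow and in wide domains. At chr17:63740947-63752339, which holds the sixth strongest HA member, normalized reads were 512.7 and 650.0 in C3, against 302.3 and 367.4 in OSKM (log2 fold change 0.79 ± 0.14, SE, adjusted p = 0.00498). Near Serpinb6c, a serine protease inhibitor gene, chr13:33859595-33870524 had 501.5 and 618.1 in C3, against 337.5 and 311.1 in OSKM (0.78 ± 0.13, adjusted p = 0.00326). The Gm40652 region chr10:57136437-57145956 had 286.9 and 265.8 in C3, against 162.6 and 183.3 in OSKM (0.67 ± 0.16, adjusted p = 0.0184). Libraries of C3 lay above those of OSKM in all 3. The remaining named rises, chr13:77668956-77675541 and chr4:29709587-29719489, had log2 fold changes of 0.68 and 0.66. The protocadherin region chr18:36979473-36990237 had 108.1 and 88.0 RPM in C3, against 55.9 and 55.2 in OSKM (0.50, adjusted p = 0.0326).

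Falls in C3 included both Rn18s-rs5 regions, with 1 read in each C3 library and the OSKM reads given above (adjusted p = 3.3e-10 and 5.4e-09). The Cmss1 and Filip1l region and that near Trnt1 likewise had 1 read in each C3 library (adjusted p = 8.9e-05 and 0.00567), and chr6:3200771-3201417 had 1 and 1 reads in C3, against 124 and 90 in OSKM (adjusted p = 0.00046). C2 and C3 were set against the same OSKM libraries, so these shared falls are not independent. The strongest HA member, near Rbmxl2, lay in a region that fell in C3, with 63.0 and 95.5 RPM, against 109.7 and 114.2 in OSKM (a log2 fold change of -0.83, with an adjusted p of 0.00529). The Zyg11b region had 219.2 and 241.1 in C3, against 292.5 and 294.9 in OSKM (-0.66, adjusted p = 0.00039), and the Zfp277 region fell by 0.46 on the log2 scale (adjusted p = 0.0144). Of the 35 regions, 6 were on chromosome 8, where 33.5% of all tested regions fell. H3K27ac also fell there in C3, at 37.6% of its tested regions (median log2 fold change -1.09).

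These C3 calls leaned on the OSKM libraries. Fewer were made when either OSKM library was left out, at members and over all regions. The region chr17:63740947-63752339 lost its call without OSKM replicate 1 (adjusted p = 0.0633), as did chr4:29709587-29719489 (0.0838) and chr6:3200771-3201417 (0.0816), and the Rbmxl2 region without OSKM replicate 2 (0.0559). The Gm40652 region lost it without OSKM replicate 1 (0.159) or 2 (0.0736), and the region near Trnt1 likewise (0.198 and 0.219). The chr13:77668956-77675541 region lost it without C3 replicate 1 (0.0599) or either OSKM replicate (0.139 and 0.141), the protocadherin region without C3 replicate 1 (0.129) or either OSKM replicate (0.158 and 0.164), and the Zfp277 region without C3 replicate 2 (0.0715) or either OSKM replicate (0.107 and 0.116). After quantile normalization 45 of the 47 regions were no longer called, the pair at Rn18s-rs5 being the exception. Over all regions it left 7 called (0.0102%). C2 and C3, compared with each other, differed at 0 members in limma, against 0.1% of all regions, 0.0349% higher and 0.0654% lower. At an unadjusted p under 0.05 in limma there were 126 members, against 6304 of all 68845 regions. edgeR called 10 members (all lower in C2) and DESeq2 0, against 0.812% and 0.208% of all regions. Leaving out C2 replicate 1 raised the limma count, at members and over all regions.

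**Figure D4:**
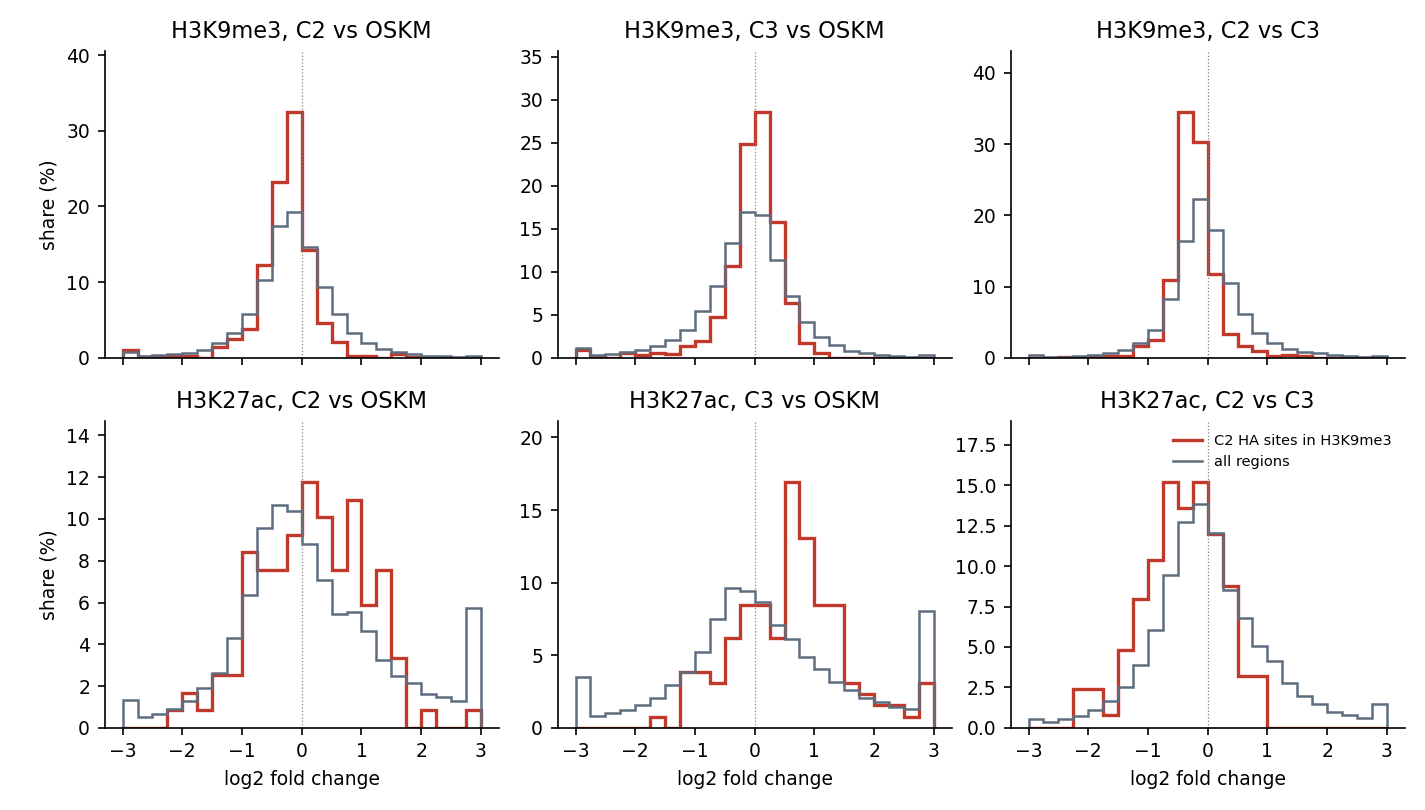
Distributions of the log2 fold change of normalized reads for C2 HA sites in H3K9me3 and for all regions, above the lowest 25% by mean, in 3 comparisons of lines (columns) and 2 marks (rows); the y axis is the share of each set (%), and values beyond 3 are in the end bins. H3K9me3 medians at the sites are -0.22 (C2 vs OSKM), 0.04 (C3 vs OSKM) and -0.26 (C2 vs C3), against -0.15, -0.06 and -0.07 over all regions.

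Some members carried an H3K27ac peak as well, at about the share of H3K9me3 peaks in general. A peak of at least 1 H3K27ac library overlapped 183 members (16.4%), against 16.4% of all merged H3K9me3 peaks, and all 6 libraries had one at 61 members (5.48%), against 4.45%. By library, the number was 143 and 71 in C2, 177 and 144 in C3 and 121 and 133 in OSKM. The mean share over libraries was 11.8 ± 3.15% of members, against 0.229 ± 0.0939% of the other C2 HA sites (SD, n = 6 libraries). It was higher at members in 6 of 6 libraries. All merged H3K9me3 peaks had a share of 10.5 ± 3.07%, a difference of 1.35 percentage points, and the 251 Empty HA sites in H3K9me3 had 7.37 ± 2.37%, a difference of 4.44 points. An exact two-sided sign-flip permutation over the 6 libraries gave p = 0.0313 in each of the 3 comparisons, the smallest it can give. The libraries read the same fixed sites, so a constant sign is no independent evidence about the sites, and with equal any-library shares the 1.35 points are not read as a property of the members. As given above, more than 9 in 10 of the members' H3K27ac peaks had fewer reads in the region table than tags at the summit, and the part of this in the shares was not tested.

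**Figure D5:**
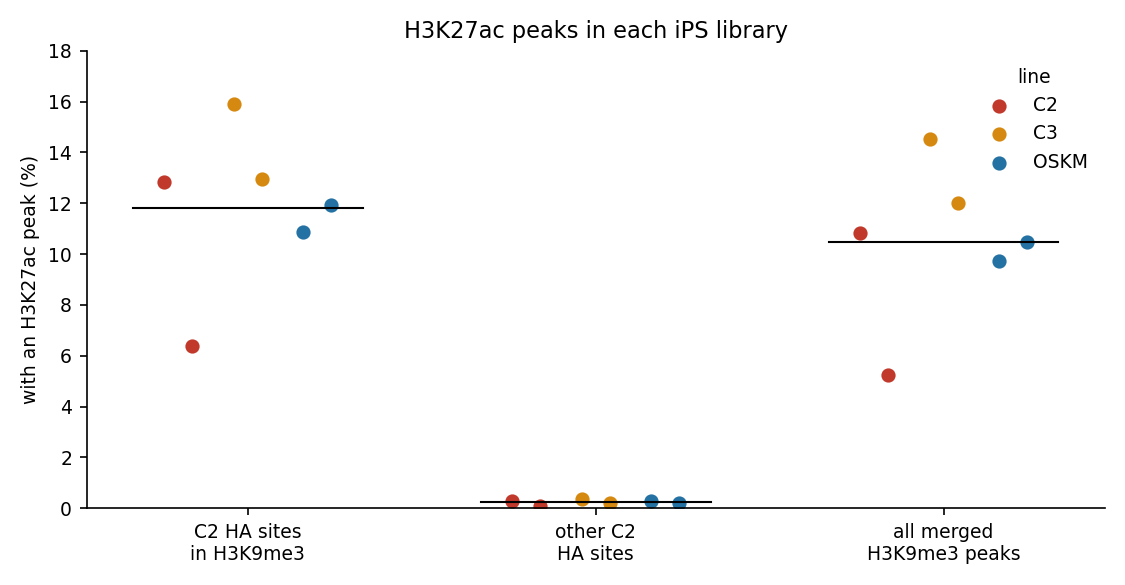
Share (%) of C2 HA sites in H3K9me3, of the other C2 HA sites and of all merged H3K9me3 peaks that overlap an H3K27ac peak, in each of the 2 libraries of C2, C3 and OSKM (points), with the mean over the 6 libraries (line). Means are 11.8%, 0.229% and 10.5%.

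H3K27ac peaks were most frequent at members with H3K9me3 in 3 or 4 of 6 libraries. With H3K9me3 in 1, 2, 3, 4, 5 and 6 of 6 libraries, 3.47%, 13.2%, 44.2%, 46.4%, 32.5% and 7.04% of members had an H3K27ac peak, and 11.1%, 14.0%, 18.2%, 24.5%, 30.3% and 18.3% of all merged H3K9me3 peaks. At members with both marks, the HA centre lay a median of 62 bp from the nearest H3K9me3 summit and 195 bp from the nearest H3K27ac summit. The highest mean H3K27ac fold among members with all 6 peaks was at chr1:104218368-104218857, with 10.4 and 5.70 in C2, 14.2 and 11.2 in C3 and 12.8 and 7.84 in OSKM. Its H3K9me3 peaks were in C2 replicate 2 (fold 4.11) and both OSKM libraries (4.00 and 6.04), with none in C3. Most members with all 6 H3K27ac peaks and 3 H3K9me3 libraries had the mark in these same libraries. The redundant share of tags was 0.31 in C2 replicate 2 and 0.36 and 0.42 in OSKM. It was 0.24 to 0.27 in the other H3K9me3 libraries, and its part in this pattern was not tested. Members at Mei4, a meiotic recombination gene, Unc5d, a netrin receptor gene, and Nell1, which encodes a secreted signalling protein, were also among the 8 highest and had H3K9me3 in 3, 3 and 4 libraries.

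Between lines, H3K27ac rose at 1 member in C2 against OSKM and fell at 0, against 3.72% and 3.91% of all 135566 regions and 7.63% in either direction. With median-centred libraries 1 rose and 2 fell. In C3 against OSKM it rose at 5 and fell at 0, against 9.67% and 6.13%, or 15.8% in either direction. Of the 190 members with an H3K27ac region, 58 were at 1 read in all 4 libraries for C2 with OSKM, 59 for C3 with OSKM and 56 for C2 with C3, and 119, 130 and 125 were tested in both fits. Among these the median log2 fold change was 0.20 in C2 against OSKM, 0.60 in C3 against OSKM and -0.39 in C2 against C3, compared with -0.01, 0.03 and -0.06 over all such regions. The region chr1:62676789-62679946, 15033 bp from Gm11599, rose in both: normalized reads were 211.8 and 161.7 in C2, against 68.1 and 60.2 in OSKM (log2 fold change 1.52 ± 0.27, SE, adjusted p = 0.0182 in limma), and 374.8 and 390.5 in C3, against 74.0 and 65.5 in OSKM (2.44 ± 0.24, adjusted p = 0.00307). Both lines lay above OSKM in every library, and the OSKM libraries are the same ones. The HA member there, chr1:62676752-62677171, had 6 and 9 tags, with H3K9me3 peaks in both C2 and both OSKM libraries and none in C3. The other 4 rises in C3 were at low counts. At chr18:57013762-57014652 there were 41 and 20 reads in C3, against 1 and 1 in OSKM (adjusted p = 0.0135), and at chr1:104279180-104280756 there were 73 and 34, against 1 and 12 (0.0443). At chr17:57698834-57700166 there were 17 and 20 reads in C3, against 1 and 2 in OSKM (0.0344), and at chr15:93050117-93050844 within Gm30085 there were 18 and 16, against 2 and 1 (0.0380).

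The chr18:57013762-57014652 rise lost its call without OSKM replicate 1 (adjusted p = 0.0538), that at chr1:104279180-104280756 without either C3 replicate (0.183 and 0.116) or OSKM replicate 1 (0.0957), and those at chr17:57698834-57700166 and chr15:93050117-93050844 without C3 replicate 2 (0.0566 and 0.0589) or either OSKM replicate. Quantile normalization ended all 6 of these calls, that at chr1:62676789-62679946 with adjusted p = 0.121 in C2 and 0.050006 in C3. Over all regions it left 4 called in C2 and 15 in C3. In C2 against OSKM more members were called without either C2 library, and so were more of all regions. In C3 against OSKM fewer were called without either OSKM library, at members and over all regions. Leaving out C3 replicate 1 raised both counts, and leaving out C3 replicate 2 lowered that of members and raised that over all regions. For the absence of falls, edgeR called 2 members lower in C2 and 0 lower in C3, and DESeq2 0 and 0. In either direction edgeR called 11.6% of all regions in C2 and 17.5% in C3, and DESeq2 5.5% and 12.8%. An unadjusted p under 0.05 in limma was found at 8 and 23 members, against 33367 and 38778 of all 135566 regions. C2 and C3 differed from each other at 0 members, against 0.0435% of regions (0.0207% higher and 0.0229% lower). edgeR and DESeq2 also called 0, against 1.77% and 0.266% of all regions. An unadjusted p under 0.05 in limma was found at 4 members, against 17878 of all 135566 regions. Leaving out C2 replicate 1 raised the limma count, at members and over all regions.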

How the data were processed

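Peaks of 16 libraries and 6 region tables were used; the 6 input samples were not analysed here. Per the submitters' processing notes reads came from CASAVA 1.8.2 and the authors ran Bowtie2 2.2.5 on mm10, then SAMtools 1.3; regions came from DiffBind 1.16.2. Per the file headers, peaks were called with MACS 2.1.0.20150731 (histone marks) and 2.1.1.20160309 (HA) at a q-value of 0.01. The authors' peak lists hold fold enrichment as a ratio, pileup as a signal in tags, and -log10 of each p-value and q-value. The region tables deposited by the authors give a normalized signal per library beside their own p-value, FDR and log2 fold change; dividing the signal by 1 factor per library gave back whole reads.

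Overlap meant 1 bp. Lines were compared in R 4.3.3 by limma 3.58.1 on log2(normalized reads + 1), with a trend, over each whole table, and adjusted by Benjamini-Hochberg. A region was called at an adjusted p under 0.05 in that fit and, in the same direction, without the lowest 25% of regions by mean, and the larger adjusted p is printed. Alternatives used edgeR 4.0.16 and DESeq2 1.42.0 on recovered reads. The fit was tested on simulated data. The data.table package used was version 1.17.8. Overlaps and exact tests ran in SciPy 1.17.1, pandas 2.3.3 and NumPy 2.4.6 under Python 3.11.15, with plots by matplotlib 3.10.9. Gene extents and promoter windows are those of RefSeq GRCm38.p6, the build of mm10. Coordinates are 1-based. Members named are the 10 with the highest mean HA fold, up to 5 called per direction and comparison, up to 3 per gene list, and those at the lowest and the median fold. Members and lists were chosen with earlier results of these data known. Intervals cover counting error only.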

Additional observations from a re-analysis of the deposited data

How the results depend on the processing

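The number of members, 1113, was 397 with C2 HA peaks at a -log10 q of at least 5, 594 with no Empty peak within 1000 bp and 738 with a pair of C2 summits within 200 bp; it ranged from 1308 to 10298 when an HA library was left out. The share of C2 HA sites in H3K9me3, 43.3%, was 46.4% with the stricter HA threshold, 39.1% at 50% coverage, 36.3% with a peak in both libraries of a line, 41.0% with no Empty peak within 1000 bp, and 35.4% to 48.4% without an HA library. The share of members with H3K9me3 in both libraries of a line was, with H3K9me3 peaks at a -log10 q of at least 5, 54.8% in C2, 52.8% in C3 and 78.8% in OSKM, and with 1 library left out 67.0% to 73.2% in C2, 57.0% to 72.3% in C3 and 84.9% to 94.97% in OSKM.

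Members called for H3K9me3 in C2 against OSKM, 13, numbered 3 with a pseudocount of 8, 8 with median-centred libraries, 3 after quantile normalization, 40 with the replicate block, 27 by the authors' deposited FDR, 34 in DESeq2 and 7 without chromosome 8, and 8 to 137 with a library left out. In C3 against OSKM, 57 became 3 after quantile normalization and 19 to 71 with a library left out; median centring gave 16 higher and 23 lower. In C2 against C3, 0 became 8 without the filter on low values, 9 with the block, 1 by the deposited FDR and 10 in edgeR, and 0 to 35 with a library left out. For H3K27ac in C2 against OSKM, 1 became 3 without the filter, 3 with median centring, 0 after quantile normalization, 2 with the block, 3 by the deposited FDR and 3 in edgeR, and 1 to 12 with a library left out. In C3 against OSKM, 5 became 11 without the filter, 0 after quantile normalization, 12 by the deposited FDR and 3 in DESeq2, and 2 to 8 with a library left out. In C2 against C3, 0 became 2 with the block and 0 to 1 with a library left out. The cause of these changes was not tested. Chromosome 8, the Rn18s-rs5 locus and counting each region once were alternatives chosen after seeing the data, and the last 2 kept every count within 1.5 times. For the block, replicate numbers only number the libraries: deviations of same-numbered libraries had correlations of -0.05 to 0.35. At the named regions no alternative reversed a direction. With 8 HA tags at a typical summit, and 1 read in every library of an H3K9me3 comparison at 204 to 227 members, depth limits what can be seen.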
